A study of Homo sapiens with 5 samples.

Results

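The 10 genes described here encode inhibitors and readouts of signalling through the kinase ERK: the dual-specificity phosphatases DUSP1, DUSP4, DUSP5 and DUSP6, the Sprouty proteins SPRY1, SPRY2 and SPRY4, the Sprouty-related proteins SPRED1 and SPRED2, and the transcription factor ETV5. They were chosen by name as genes that ERK signalling is known to induce, but with earlier results of these data known. All 10 are among the 64252 gene identifiers of the deposited table, and all 10 passed the filter on low counts, as did 15341 genes in all. The libraries came from RPE-1 cells, a human retinal pigment epithelial line immortalized with telomerase, harvested 48 hr after transfection. The siCtrl group (3 libraries) received a non-targeting ON-TARGET control siRNA, and the siFAM53C group (2 libraries) received an ON-TARGETplus pool of siRNAs against FAM53C, both at 5 µM with Lipofectamine RNAiMAX. FAM53C is a protein studied here for its link to the kinase DYRK1A and to the G1/S transition. The methods describe samples collected in duplicate, whereas 3 siCtrl libraries were deposited; which controls the study compared is not given in the sources used here, and all were used. Both groups share the cell line, the transfection reagent and the harvest time. All libraries are polyadenylated RNA of 1 cell line, no untransfected cells were analysed here, and a pool of siRNAs cannot tell the loss of its target from effects of single siRNAs on other transcripts. The labels do not say that the libraries of a group came from separate cultures, so the tests measure the spread between these libraries, which may be technical.

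ERK is activated through receptor tyrosine kinases, RAS, RAF and MEK, and it switches on genes whose products dampen the same route. The phosphatases remove phosphate from ERK and, for some of them, from the related kinases JNK and p38. Sprouty and SPRED proteins act upstream, between the receptor and RAF, and ETV5 is an ETS-family transcription factor whose transcript follows ERK activity in many epithelial cells. The levels of several of these transcripts, DUSP6 among them, are therefore widely read as a measure of ERK output. SPRY2 is also a known substrate of DYRK1A. Transcripts of many of these genes are short-lived.

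The targeted gene was lower in both siFAM53C libraries. FAM53C stood at 60.9, 59.7 and 57.6 CPM (counts scaled by TMM factors to a common library size) in the siCtrl libraries and at 14.2 and 22.3 CPM in the siFAM53C libraries, a log2 fold change of -1.71 (SE 0.19; edgeR quasi-likelihood test, Benjamini-Hochberg adjusted p = 0.003625). Library totals ranged from 19260124 to 25615415 counts on genes. In a principal component analysis, the first axis (39.8% of the variance) had its widest gap between siCtrl 3 and siFAM53C 2 and the other libraries, so each difference below is also given within these sides: siFAM53C 1 minus the mean of siCtrl 1 and 2, and siFAM53C 2 minus siCtrl 3. The libraries lay at -47.4 (siCtrl 2), -31.5 (siCtrl 1), 0.26 (siFAM53C 1), 33.7 (siCtrl 3) and 44.9 (siFAM53C 2) on this axis, so siFAM53C 1 was near its middle and is placed with siCtrl 1 and 2 by a small margin. The sides were defined from the data and carry no label. Fits with a term for the side use the same libraries that set it, so their p-values may be too small. For the markers, CPM was scaled by library totals alone, without TMM factors. Of the markers of the line, KRT8 (234 to 336 CPM), KRT18 (146 to 187 CPM) and VIM (3332 to 4109 CPM) were present in every library. MITF was at 33.2 to 48.4 CPM, while RPE65, a defining gene of mature retinal pigment epithelium, had 0 counts in all 5 and TYR and RLBP1 were at or near 0. Of the markers of other cell types, CD3E, LYZ, CDH5 and ALB were at 0, and PTPRC, PECAM1 and SNAP25 reached at most 1.04, 0.83 and 4.78 CPM.

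None of the 10 genes passed the test. By edgeR's quasi-likelihood fit over all genes, 0 of 10 were lower and 0 of 10 higher at an adjusted p under 0.05, where 3.47% of all genes tested were lower (533 of 15341) and 0.489% higher (75). Before adjustment, 1 was lower and 0 were higher at p under 0.05, where 10.5% of all genes tested were lower and 6.61% higher. DESeq2 (6.98% of its genes lower and 2.02% higher) and limma-voom (3.35% and 0.482%) each called 0 of the 10. The log2 fold change was below 0 for 9 genes and above 0 for 1, with a median of -0.14, beside 0.016 over all genes tested. Single libraries moved this median, to -0.42 without siFAM53C 1, to 0.051 without siFAM53C 2, to -0.22 without siCtrl 3 and to -0.082 without siCtrl 1, and it was -0.067 when CPM was scaled by library totals alone. Within the sides the medians of the 10 genes were -0.041 and -0.14. In 1 gene, SPRED1, both siFAM53C libraries lay below all 3 siCtrl libraries, and in 0 genes above them, where these shares were 18.8% and 16.7% over all genes tested. In bulk RNA, a lower level cannot be told apart from fewer cells that carry the transcript.

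**Figure D1:**
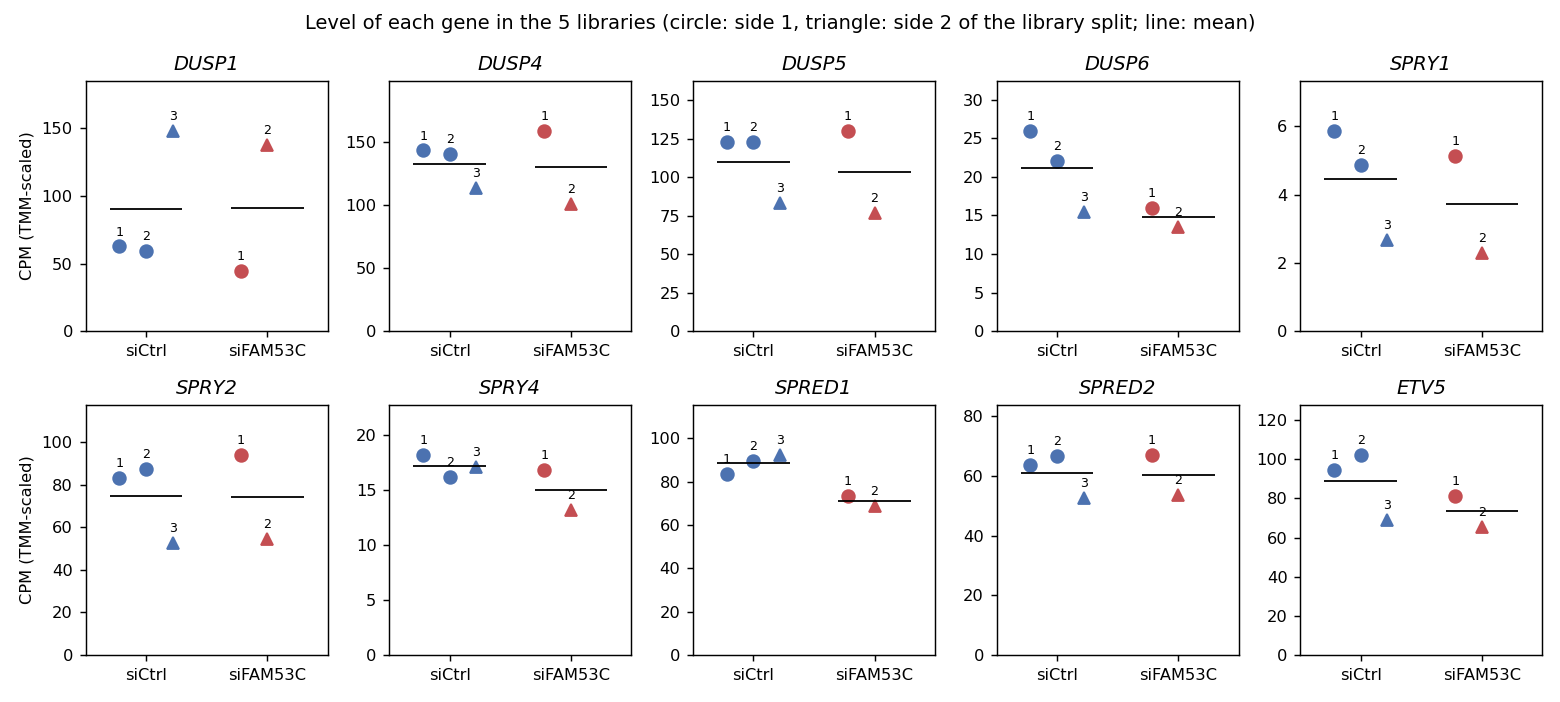
Each panel shows 1 gene, with the library group on the horizontal axis and its level in CPM (TMM-scaled) on the vertical axis, which starts at 0. Points are single libraries numbered by replicate (circles for one side of the principal component and triangles for the other), and lines are group means. The groups overlap in every panel except that of SPRED1, and in DUSP1 siCtrl 3 and siFAM53C 2 lie far above the other libraries.

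DUSP1 (ENSG00000120129; GRCh38, chr5:172768096-172771195, minus strand) encodes a nuclear phosphatase of p38, JNK and ERK that is induced quickly by stress and growth factors. It stood at 62.7, 59.4 and 147.8 CPM in siCtrl 1 to 3 and at 44.8 and 137.5 CPM in siFAM53C 1 and 2. The 2 high libraries belong to different conditions, and the groups overlap throughout. The group means were 90.0 ± 50.1 CPM (SD, n = 3) and 91.2 ± 65.5 CPM (SD, n = 2), and the log2 fold change was 0.019 with a 95% interval from -1.86 to 1.90, the widest of the 10. Within the sides, siFAM53C was lower in both, by -0.44 and -0.10 on the log2 scale. With a term for the side in the model, a fit in which 10.7% of all genes were lower, DUSP1 was called lower, at -0.29 (SE 0.095; edgeR adjusted p = 0.0462). This p-value may be too small, because the side was set from the same libraries.

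DUSP4 (ENSG00000120875; chr8:29333064-29350684, minus strand) encodes a nuclear phosphatase of ERK and JNK. Its levels were 143.0, 140.2 and 113.4 CPM in siCtrl and 158.3 and 100.6 CPM in siFAM53C. The siFAM53C libraries were the highest and the lowest of all 5. The log2 fold change was -0.030 (SE 0.20, 95% interval -0.50 to 0.44), with 0.16 and -0.17 within the sides.

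DUSP5 (ENSG00000138166; chr10:110497907-110511533, plus strand) encodes a nuclear phosphatase that acts on ERK and holds it in the nucleus. It was measured at 122.9, 123.3 and 83.3 CPM in siCtrl and at 130.1 and 76.8 CPM in siFAM53C. As for DUSP4, the siFAM53C libraries bracketed the controls. Its log2 fold change was -0.086 (SE 0.27, 95% interval -0.72 to 0.55), and the sides gave 0.080 and -0.12.

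DUSP6 (ENSG00000139318; chr12:89347235-89352501, minus strand), the cytoplasmic phosphatase specific for ERK and a common transcript readout of the pathway, had the lowest fold change of the 10. It stood at 25.9, 22.03 and 15.5 CPM in siCtrl and at 16.0 and 13.5 CPM in siFAM53C. The groups overlap because siCtrl 3 lay below siFAM53C 1. The means were 21.1 ± 5.30 CPM (SD, n = 3) and 14.7 ± 1.76 CPM (SD, n = 2), a log2 fold change of -0.52 (SE 0.23, 95% interval -1.06 to 0.022; edgeR adjusted p = 0.3127). In the sides it differed by -0.58 and -0.19. Without siCtrl 3, a fit in which 5.91% of 14986 genes were lower, DUSP6 was called lower at -0.69 (edgeR adjusted p = 0.03431), so this call depends on siCtrl 3. DUSP6 shares 1105 exon bases with ENSG00000274021 on the opposite strand, and the strand used in counting is not given in the sources used here, so reads of that gene may be included.

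The Sprouty genes encode adaptors that hold back receptor signalling to RAS and RAF. SPRY1 (ENSG00000164056; chr4:123396795-123403760, plus strand) was the lowest of the 10 in CPM, with 138, 93 and 51 counts in siCtrl and 136 and 54 in siFAM53C. These are 5.86, 4.87 and 2.67 CPM against 5.14 and 2.29 CPM. The lowest library of each condition was siCtrl 3 or siFAM53C 2, and the groups overlap. The log2 fold change was -0.26 (SE 0.46, 95% interval -1.33 to 0.80), with -0.054 and -0.21 within the sides.

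SPRY2 (ENSG00000136158; chr13:80335976-80341126, minus strand), which also binds the ubiquitin ligase CBL, was at 83.2, 87.7 and 52.8 CPM in siCtrl and 94.2 and 54.5 CPM in siFAM53C. The ranges of the conditions overlap. The means, 74.6 ± 19.0 CPM (SD, n = 3) and 74.4 ± 28.0 CPM (SD, n = 2), gave a log2 fold change of -0.0035 with a 95% interval from -0.74 to 0.73, and the sides gave 0.14 and 0.048. DYRK1A itself, named for its link to SPRY2 after its values were seen, was at 69.0, 73.8 and 84.6 CPM in siCtrl and 69.7 and 69.0 CPM in siFAM53C (log2 fold change -0.13, SE 0.12; edgeR adjusted p = 0.6681).

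SPRY4 (ENSG00000187678; chr5:142310427-142326455, minus strand) was steady in the controls, at 18.2, 16.2 and 17.1 CPM, and stood at 16.8 and 13.2 CPM in siFAM53C. siFAM53C 1 lay within the control range and siFAM53C 2 below it. Its log2 fold change was -0.19 (SE 0.17, 95% interval -0.59 to 0.20), with -0.029 and -0.37 within the sides.

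SPRED1 (ENSG00000166068; chr15:38252836-38357249, plus strand) brings neurofibromin, which switches RAS off, to the membrane, and loss-of-function mutations in it cause Legius syndrome. Its levels were 83.6, 89.7 and 92.4 CPM in siCtrl and 73.2 and 68.6 CPM in siFAM53C. It is the one gene of the 10 in which the conditions do not overlap. The means were 88.5 ± 4.50 CPM (SD, n = 3) and 70.9 ± 3.24 CPM (SD, n = 2), a fold of 0.801 (95% interval 0.677 to 0.948) and a log2 fold change of -0.32 (SE 0.10; edgeR adjusted p = 0.171). Its spread among the controls was narrow, at the percentile 11.95 of all genes tested. It was lower within both sides, by -0.24 and -0.43, and with the term for the side it was called lower (-0.32, SE 0.089; edgeR adjusted p = 0.01971). By DESeq2 its adjusted p was 0.1447.

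SPRED2 (ENSG00000198369; chr2:65310851-65432637, minus strand), a relative of SPRED1 that inhibits the same step, was at 63.8, 66.9 and 52.6 CPM in siCtrl and 67.1 and 53.7 CPM in siFAM53C. The conditions overlap, with means of 61.1 ± 7.55 CPM (SD, n = 3) and 60.4 ± 9.50 CPM (SD, n = 2). Its log2 fold change was -0.016 (SE 0.15, 95% interval -0.36 to 0.33), and the sides gave 0.039 and 0.031.

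ETV5 (ENSG00000244405; chr3:186046314-186110318, minus strand), of the PEA3 group of ETS factors, was at 94.7, 102.3 and 68.8 CPM in siCtrl and 81.3 and 65.5 CPM in siFAM53C. The siFAM53C libraries fell between and just below the controls, with siCtrl 3 close to siFAM53C 2. The log2 fold change was -0.27 (SE 0.19, 95% interval -0.70 to 0.16; edgeR adjusted p = 0.527), with -0.28 and -0.071 within the sides. Without siCtrl 3 it was -0.42 (edgeR adjusted p = 0.07157). ETV5 shares 164 exon bases on the same strand with DGKG, which counting may split.

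**Figure D2:**
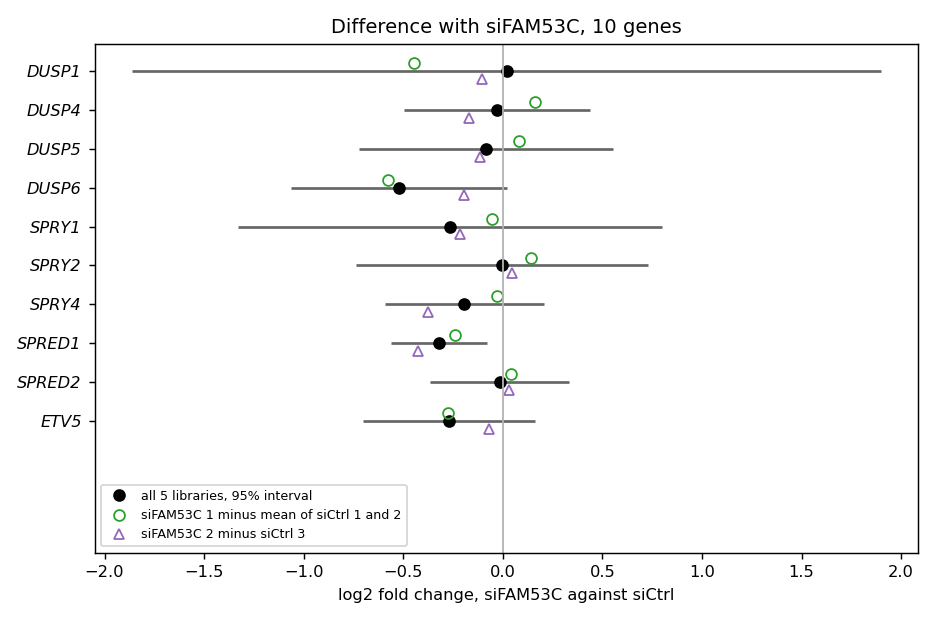
Log2 fold changes (siFAM53C against siCtrl) of the 10 genes on the horizontal axis, with black points and 95% intervals from the fit over all 5 libraries, green circles for siFAM53C 1 minus the mean of siCtrl 1 and 2, and purple triangles for siFAM53C 2 minus siCtrl 3. The interval of SPRED1 lies below 0, those of the other 9 genes include it, and DUSP1 and SPRY1 have the widest.

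The larger differences among these genes were between libraries of the same condition. In siCtrl 3 against the mean of siCtrl 1 and 2, and in siFAM53C 2 against siFAM53C 1, 8 of the 10 genes were lower in both contrasts, where 34.0% of all genes tested were (5219 of 15341). SPRY4 is counted among the 8, although it differed by only -0.0067 in log2 CPM between the controls. DUSP1 was higher in both, by 2.42-fold and 3.06-fold, and SPRED1 differed in sign, by 0.093 and -0.093 on the log2 scale. SPRY1 had the lowest ratios, 0.509 and 0.455. SPRY2 differed by -0.69 and -0.79 in log2 CPM, DUSP5 by -0.56 and -0.76, and DUSP4 by -0.32 and -0.65. Over the 10 genes, the median size of the difference was 0.540 between siCtrl 3 and the other controls and 0.503 between the siFAM53C libraries, against 0.288 and 0.225 over all genes tested. Among related genes listed below, 3 of 3 other Sprouty, SPRED and PEA3 genes tested were also lower in both contrasts. For other genes induced by ERK this was 7 of 18. The split was seen before these values were computed and is described with no test.

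In 7 of the 10 genes, both of these differences within a condition were larger than the log2 fold change between the conditions. DUSP6, SPRY4 and SPRED1 were the others. The share of all genes tested that meet this rule was not computed, so the count is not shown to be particular to the 10. Over all genes tested, the median size of the log2 fold change was 0.243, beside 0.288 and 0.225 for the differences within a condition. The genes whose profiles across the 5 libraries were closest were DUSP5 and SPRY2, with a root mean square difference of 0.069 in centred log2 CPM, followed by DUSP4 and DUSP5 (0.099). DUSP10, a phosphatase of p38 and JNK outside the 10, moved with DUSP1, at 2.41-fold and 3.46-fold in these contrasts. It was the only 1 of the 5 other MAP kinase phosphatases tested to do so, and the remaining 4 were lower in both. DUSP6, the gene with the largest fold change, was most like FOXC2 (0.036), PPP1R14B (0.043) and SEMA7A (0.053) among 9220 genes compared with a mean of at least 10 CPM.

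**Figure D3:**
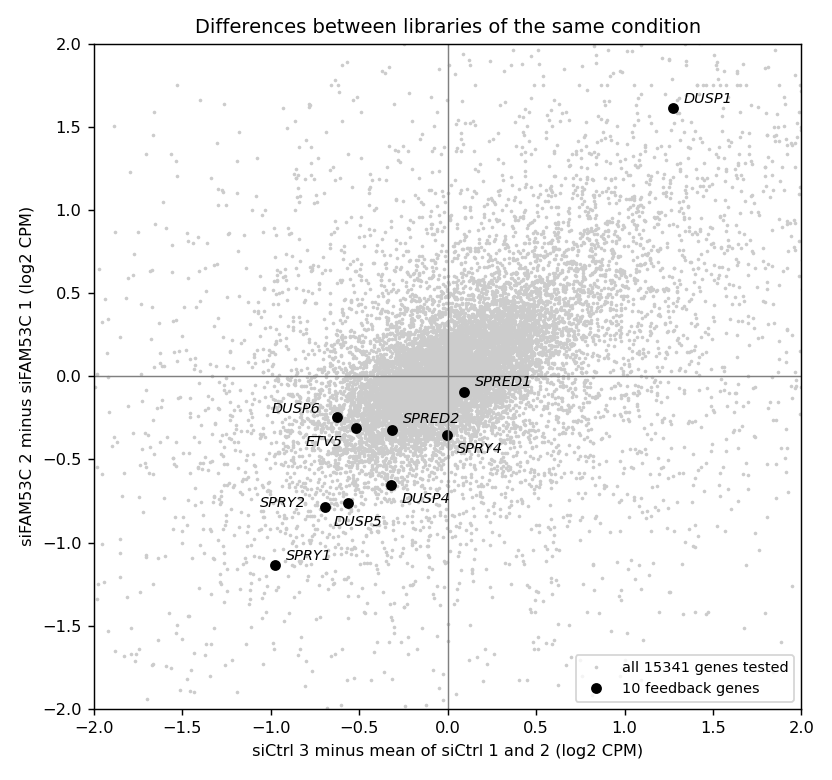
The horizontal axis is siCtrl 3 minus the mean of siCtrl 1 and 2 and the vertical axis siFAM53C 2 minus siFAM53C 1, both in log2 CPM. Grey points are genes tested, of which 559 lie outside the axes, and black points are the 10 genes, with 8 in the lower left and DUSP1 in the upper right.

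The start-site and 3′ UTR sequences of the genes are given for these contrasts. The promoters of DUSP1 and SPRY1, the genes with the highest and the lowest ratios between libraries of a condition, are shown from RefSeq on GRCh38.p14, from 250 bases before to 50 bases after a start site, 5′ to 3′ on the gene's strand. Capitals mark a cyclic AMP response element (TGACGTCA) in DUSP1 and an ETS core (CCGGAAG) in SPRY1.
DUSP1, chr5:172771146-172771445, minus strand: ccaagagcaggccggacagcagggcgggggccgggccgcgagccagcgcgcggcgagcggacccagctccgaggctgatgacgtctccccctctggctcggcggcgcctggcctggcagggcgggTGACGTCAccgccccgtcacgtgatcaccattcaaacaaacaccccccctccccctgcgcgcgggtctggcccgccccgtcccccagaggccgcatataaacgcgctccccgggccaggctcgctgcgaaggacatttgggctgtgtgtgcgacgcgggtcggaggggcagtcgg
SPRY1, chr4:123398136-123398435, plus strand: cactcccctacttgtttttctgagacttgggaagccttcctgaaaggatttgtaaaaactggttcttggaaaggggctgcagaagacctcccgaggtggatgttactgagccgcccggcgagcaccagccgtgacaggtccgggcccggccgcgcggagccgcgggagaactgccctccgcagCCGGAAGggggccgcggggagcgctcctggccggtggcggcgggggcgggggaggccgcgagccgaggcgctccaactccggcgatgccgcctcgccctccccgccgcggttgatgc
Promoters were found for 7 of the 10 genes (11 start sites), and not for DUSP4, DUSP5 and ETV5. Searched on both strands, TGACGTCA was in the DUSP1 promoter and not in those of the other 6 genes searched, against 1.85% of 35116 promoters. CCGGAAG was in the SPRY1 start site shown and not in the other start site of that gene (10.3% of all promoters). A gene was counted when any of its start sites held the word, whereas the percentages are of single promoters. The shorter word TGACG, which TGACGTCA contains on each strand, was in DUSP1, SPRY2, SPRY4 and SPRED2 (24.6%), the AP-1 element TGANTCA in SPRED2 (7.71%), and TATAAA in DUSP1 and SPRED2 (11.5%). These matches are descriptions of the letters and say nothing of binding.

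In the longest annotated 3′ UTR, the heptamer TATTTAT, the core of an AU-rich element that is known to mark short-lived transcripts, was in 8 of the 10 genes (not in DUSP5 and DUSP6), against 38.3% of 12075 genes tested and 43.6% of the 8209 whose UTR has the length range of the 10 (666 to 5585 bases). The shorter AU-rich word ATTTA was in 9 of the 10, close to its share of 87.5% in that length range (76.2% of the 12075). Windows of 30 bases around 1 TATTTAT word are shown for DUSP1, with the highest ratios, for SPRY1 and SPRY2, with the lowest, and for SPRED1, whose contrasts differ in sign, 5′ to 3′ on the transcript strand, with the word in capitals (GRCh38).
DUSP1, chr5:172768642-172768671, minus strand: gggctggtcctTATTTATttaacttcaccc
SPRY1, chr4:123403338-123403367, plus strand: actcaagttgaTATTTATagctgatcaatc
SPRY2, chr13:80336121-80336150, minus strand: agtgtaaagaaTATTTATttgaagttttat
SPRED1, chr15:38351960-38351989, plus strand: gcatttttgtaTATTTATgcattaggtgat
The word stood in DUSP1, which was higher in siCtrl 3 and siFAM53C 2, and in SPRY1 and SPRY2, which were lower there. It was in 3 places in DUSP1, 3 in SPRY1, 2 in SPRY2 and 5 in SPRED1. The 3′ UTR heptamer GACAAGA, which earlier results of these data had singled out, was in 1 of the 10, DUSP4, against 11.6% of 12075 genes.

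Compared per length, with CPM divided by the exon bases in kilobases, DUSP1 and DUSP5 were the most abundant of the 10 in siCtrl, at 44.7 ± 24.9 and 43.3 ± 9.08 CPM per kb (SD, n = 3), and they overlap. SPRY2 (23.2 ± 5.92) and DUSP4 (18.2 ± 2.25) followed and overlap, as do DUSP4 and ETV5 (15.4 ± 3.04). SPRED1 and SPRED2 stood together at 11.4 ± 0.581 and 11.1 ± 1.37. DUSP6 (5.48 ± 1.37), SPRY4 (2.62 ± 0.156) and SPRY1 (1.13 ± 0.411) were each below the gene before them in every control library. In siFAM53C the means were 45.3 for DUSP1, 3.82 for DUSP6 and 0.938 for SPRY1.

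Other genes of the pathway were counted from lists of related genes. Of the other MAP kinase phosphatases, 5 of 6 were tested and 0 were called in either direction, and 1 was below 0, with DUSP10 at 0.84 (SE 0.67; edgeR adjusted p = 0.6194) and DUSP16 at -0.019. Before adjustment there were 0 at p under 0.05. Of the other Sprouty, SPRED and PEA3 genes, 3 of 4 were tested and 0 called, with 1 higher (SPRED3) before adjustment. DESeq2 and limma-voom called 0 in both lists. SPRED3 was at 12.2, 11.5 and 11.1 CPM in siCtrl and 18.8 and 14.9 CPM in siFAM53C, with no overlap, and its log2 fold change was 0.54 (SE 0.17; edgeR adjusted p = 0.1665), while ETV1 was at -0.46 (edgeR adjusted p = 0.6285). SPRED3 and SPRED1 lay on opposite sides of 0, and neither passed the test over all genes. With the term for the side, a fit in which 6.76% of all genes were higher, SPRED3 was called higher (0.57, SE 0.15; edgeR adjusted p = 0.01737), where SPRED1 was called lower.

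Among 20 other genes induced by ERK, 18 were tested, 1 was lower and 0 higher, and 12 were below 0, with a median of -0.21. PLAUR, the urokinase receptor, was the one called, at 232.5, 228.9 and 203.8 CPM in siCtrl against 127.1 and 124.8 CPM after FAM53C knockdown, for a log2 fold change of -0.82 (SE 0.11; edgeR adjusted p = 0.007276). It was lower within both sides (-0.86 and -0.71), and its adjusted p was 0.05062 to 0.08675 when siCtrl 1, siCtrl 2, siFAM53C 1 or siFAM53C 2 was left out. At an unadjusted p under 0.05, 5 of the 18 genes were lower and 2 higher, beside 10.5% and 6.61% of all genes tested. DESeq2 called AREG lower and FOSL1 higher besides PLAUR, beside 6.98% of its genes lower and 2.02% higher.

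Among 28 genes of the cascade from receptors to ERK, 27 were tested, 1 was lower and 1 higher, and 18 were below 0, with a median of -0.098. Before adjustment, 7 were lower and 4 higher at p under 0.05, beside 10.5% and 6.61% of all genes tested. By DESeq2, 3 were lower (RASA1, HRAS and PTPN11) and 2 higher (PDGFRB and SHC1), beside 6.98% and 2.02% of its genes. The limma-voom fit called RASA1 lower and PDGFRB higher, beside 3.35% and 0.482%. By edgeR, PTPN11, the phosphatase SHP2 that relays receptor signals to RAS, was at -0.42 (adjusted p = 0.06931) and the adaptor SHC1 at 0.38 (adjusted p = 0.1197). RASA1, a GTPase-activating protein that switches RAS off, was at 84.6, 76.5 and 106.6 CPM in siCtrl and 24.6 and 31.5 CPM in siFAM53C (log2 fold change -1.67, SE 0.18; edgeR adjusted p = 0.003179), and it kept its call with each library left out. Within the sides it was lower by -1.71 and -1.76. RASA1 shares 771 exon bases with CCNH on the opposite strand. Its 3′ UTR holds the heptamer GACAAGA named above, as does that of PDGFRB, the gene called higher. The word is also in the 3′ UTRs of FRS2 and NRAS of this list, which were not called. Of 1400 genes with this word, 15.1% were called lower, against 2.92% of 10675 genes without it. Earlier results of these same data had singled out the word, so this difference is not independent of them. Whether the word bears on the RASA1 level was not tested. PDGFRB, a growth factor receptor, was at 40.8, 34.0 and 39.6 CPM in siCtrl and 59.4 and 62.2 CPM in siFAM53C (log2 fold change 0.67, SE 0.12; edgeR adjusted p = 0.02454). Its adjusted p was 0.08502 to 0.1797 when any library but siCtrl 3 was left out.

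The remaining lists gave 0 calls each: the JNK and p38 kinases (7 of 7 tested, 2 lower at an unadjusted p under 0.05, MAPK8 at -0.56 and MAPK9 at -0.45, and the highest value in MAPK10, at 0.26) and the partners of Sprouty and SPRED (10 of 10 tested, with 2 lower and 2 higher before adjustment at the same limit, beside the same 10.5% and 6.61%, TESK1 at 0.55 and PPP2CA at -0.57, edgeR adjusted p = 0.07632). By DESeq2, MAPK9 was lower in the first of these lists, and PPP2CA and NEDD4 were lower and CAV1 higher in the second. DESeq2 called 6.98% of its genes lower and 2.02% higher, and limma-voom called 0 in both lists.

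**Figure D4:**
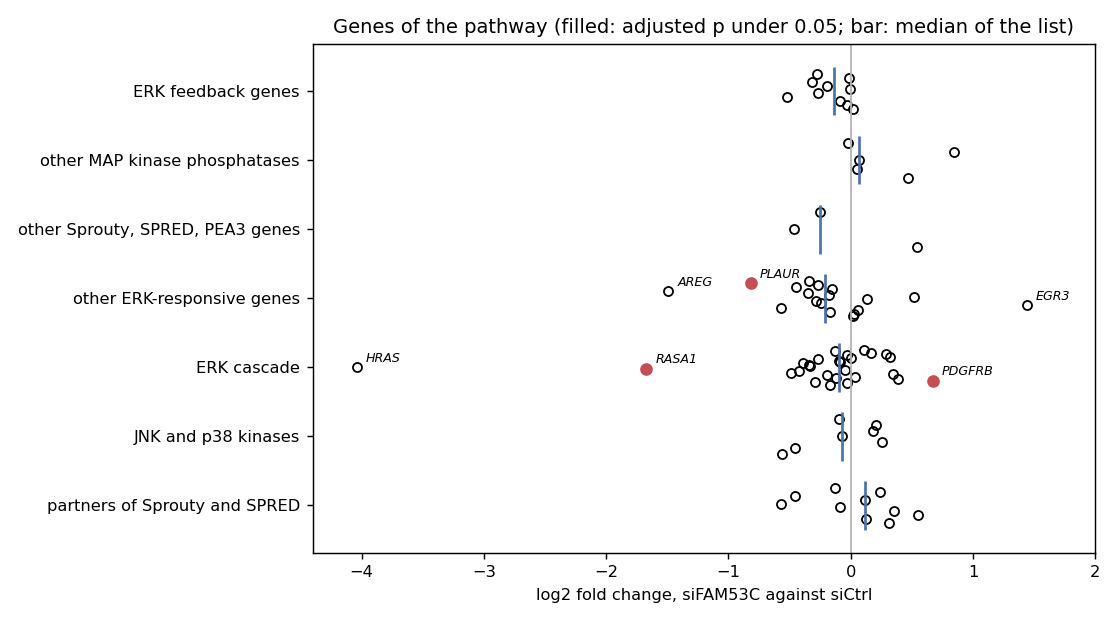
Each point is 1 gene, with its log2 fold change (siFAM53C against siCtrl) on the horizontal axis and its list on the vertical axis. Filled points passed an adjusted p of 0.05 and bars are medians. RASA1, PLAUR and PDGFRB are filled, and none of the 10 feedback genes is.

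Across 14 other settings, 29 of the 140 refitted values of the 10 genes changed sign, 16 of them with 1 library left out. DUSP6, SPRY4, SPRED1 and ETV5 were below 0 in all 14, between -0.69 and -0.34, -0.39 and -0.031, -0.37 and -0.25, and -0.44 and -0.13.

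**Figure D5:**
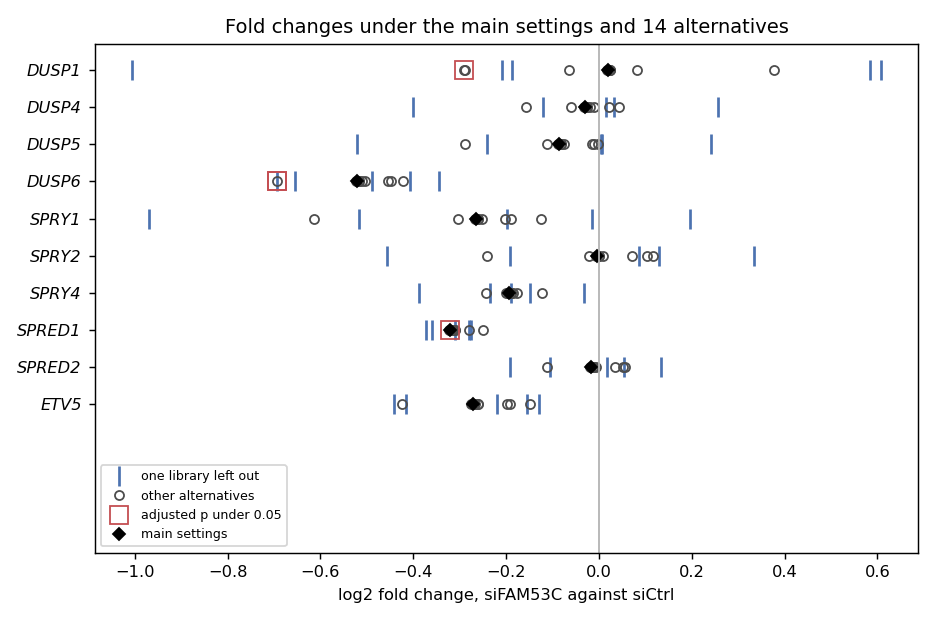
Log2 fold changes of the 10 genes on the horizontal axis under the settings of the report (diamonds), with 1 library left out (bars) and under the other settings (circles). Red squares mark an adjusted p under 0.05, found for DUSP1, DUSP6 and SPRED1, and the values of DUSP1 run from -1.01 to 0.61.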

How the data were processed

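RNA-seq counts of 5 libraries (3 siCtrl, 2 siFAM53C) were analysed. Reads were trimmed by the authors (cutadapt 2.10), mapped to hg38 by HISAT2 with reverse strandedness, and summed per gene by featureCounts; the deposited values are raw counts. The annotation release and the strand used in counting are not given in the sources used here. Each column was matched to a library by name.

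Counts were fitted in R 4.3.3 with edgeR 4.0.16 (filterByExpr with a minimum count of 10 and a minimum total of 15, TMM factors, robust quasi-likelihood fit with the condition only, Benjamini-Hochberg adjustment over all 15341 genes, threshold 0.05). Log2 CPM used a prior count of 2. Symbols and positions (56105 identifiers) came from GENCODE release 44 on GRCh38. Intervals are 95% intervals of the fit. Alternatives were DESeq2 1.42.0, limma-voom (limma 3.58.1), other size factors and filters, each library left out, replicate blocks, and a term for the library split. The code was tested on simulated counts. The members and lists were chosen with earlier results of these data known. FAM53C, the 10 genes, the extreme called genes of each list (or its highest and lowest value) and the 3 genes most like the member with the largest change were named by rule.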

Additional observations from a re-analysis of the deposited data

How the results depend on the processing

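SPRY1, with 51 to 138 counts in libraries of 19260124 to 25615415, had the fewest counts of the 10 genes and so the largest relative counting error. Its SE was 0.46, and 0.28 with the side term, and the part of counting in this spread was not tested. Over all genes, the lower and higher calls numbered 533 and 75 (87.7% lower), 890 and 257 by DESeq2 (77.6%), 961 and 375 with no filter (71.9%) and 415 and 121 with library totals only (77.4%). With 1 library left out they ranged from 157 to 886 and from 6 to 414. They were 772 and 327 with the replicate block by titles, 1298 and 602 with the replicate block by column names, and 1636 and 1037 with the side term. The block by titles left out siCtrl 3 and the block by column names siCtrl 2, which have no partner. The causes were not tested. The numbers share no source in the labels. Deviations of same-numbered libraries correlated at 0.1688 (replicate 1) and -0.2848 (replicate 2), with 0.3714 for siCtrl 3 and siFAM53C 2, whose column carries that number. Deviations were taken from the group means, so those of the 2 siFAM53C libraries are opposites and those of the 3 siCtrl libraries cancel out. These correlations therefore depend on each other and cannot decide which pairing holds.

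Of the 10 genes, 0 to 1 were lower with 1 siCtrl library left out (DUSP6 without siCtrl 3, where 5.91% of all genes were lower). With the replicate block by titles 1 was lower (DUSP6, -0.69, edgeR adjusted p = 0.03782), beside 772 of all 14986 genes. With the side term 2 were lower (DUSP1, SPRED1), beside 10.7% of all genes. The other lists, in the order described, had 5, 3, 18, 27, 7 and 10 genes tested, and shares over all genes are in brackets. Their lower calls numbered 2 (3.47%), with 8 by DESeq2 (6.98%), 8 with no filter (961 of 26587) and 17 with the side term (10.7%). They were 1 to 6 with 1 siCtrl library left out (180 to 886 genes), and 4 and 13 with the replicate blocks (772 of 14986 and 1298 of 15195). The higher calls numbered 1 (0.489%), with 4 by DESeq2 (2.02%), 2 with totals only (121 of 15341), 2 with no filter (375 of 26587) and 9 with the side term (6.76%). They were 0 to 3 with 1 siCtrl library left out (6 to 414 genes), and 2 and 6 with the blocks (327 of 14986 and 602 of 15195).

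Signs changed as follows. DUSP1 was -0.065 by limma-voom and -0.29 with the block by column names and with the side term. With 1 library left out, DUSP1 ranged from -1.01 to 0.61, DUSP4 from -0.40 to 0.26, DUSP5 from -0.52 to 0.24, SPRY1 from -0.97 to 0.20, SPRY2 from -0.46 to 0.33 and SPRED2 from -0.19 to 0.13, with siFAM53C 1 and siFAM53C 2 as the libraries left out at the ends of each range. The signs of the first 3, SPRY2 and SPRED2 also changed without siCtrl 1 or siCtrl 2. With totals only DUSP4, SPRY2 and SPRED2 were 0.044, 0.072 and 0.057. SPRY2 was 0.0011 with RLE factors, 0.0082 with the stricter filter, 0.12 with the block by column names and 0.10 with the side term. SPRED2 was 0.052 with that block and 0.036 with that term, and DUSP4 0.022 with that term. The filter alternatives changed the number of genes tested.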

Other observations

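Some values outside the named genes were read after they were seen. HRAS, one of the RAS proteins that Sprouty and SPRED restrain, was at 41.2, 12.6 and 8.12 CPM in siCtrl and 0.869 and 1.66 CPM in siFAM53C (log2 fold change -4.04, SE 0.97; edgeR adjusted p = 0.1303, DESeq2 adjusted p = 5.534e-04), with a wide spread among the controls. FOSL1, an AP-1 subunit that ERK induces and stabilizes, was at 612.0, 553.6 and 512.2 CPM in siCtrl and 813.1 and 792.7 CPM in siFAM53C (log2 fold change 0.52, SE 0.12; edgeR adjusted p = 0.05863, DESeq2 adjusted p = 0.001594).

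AREG, a ligand of the EGF receptor, had 132, 64 and 62 counts in siCtrl and 45 and 28 in siFAM53C (log2 fold change -1.49, SE 0.40; edgeR adjusted p = 0.09736). EGR3, an immediate-early transcription factor, had 25, 18 and 10 counts in siCtrl and 60 and 55 in siFAM53C (log2 fold change 1.44, SE 0.45; edgeR adjusted p = 0.1519). These genes of the pathway lay on both sides of 0. With the term for the library split, AREG and EGR3 had edgeR adjusted p-values of 0.01065 and 0.02601, which may be too small, as stated for the sides.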
